A study of Mus musculus with 24 samples.

Results

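The genes described here are 9 genes of the ATF4 amino acid stress pathway, namely Atf4, Atf5, Ddit3, Trib3, Chac1, Sesn2, Asns, Psat1 and Phgdh. They were chosen by symbol, as well-known members of the pathway, with earlier results of these data known. All 9 are among the 24594 genes of the counts table, and all 9 passed the filter on low counts, which kept 15682 genes. RNA-seq was performed on mouse embryonic stem cells (mESCs) of the 129S6/SvEvTac background deleted for one noncatalytic subunit of the ISWI chromatin remodelers, and on the parental wild-type (WT) cells. The question put to the data is how far the level of these genes in each deletion line differs from that in WT cells sequenced beside it.

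The deletions were made with CRISPR–Cas9, and each genotype is represented by 1 clone, so that the effect of a deletion and the history of a clone cannot be told apart. Rsf1Δ was made to remove the subunit of the RSF complex, Tip5Δ (gene Baz2a) that of NoRC, Acf1Δ (gene Baz1a) that of ACF and CHRAC, WstfΔ (gene Baz1b) that of WICH, BptfΔ that of NURF and Cecr2Δ that of CERF. All cells, WT included, grew on gelatin in medium with serum, LIF, nonessential amino acids, GlutaMAX and β-mercaptoethanol, and the labels name no treatment. Batch A holds 2 libraries of Rsf1Δ, 2 of WstfΔ and 2 of WT. Batches B, C and E each hold 2 libraries of 1 line (Tip5Δ, BptfΔ and Acf1Δ, in this order) and 2 of WT. Batch D holds 3 libraries labelled Cecr2Δ and 3 of WT. Rsf1Δ and WstfΔ were therefore compared with the same WT libraries.

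When amino acids run short, or when proteins misfold, kinases phosphorylate the translation factor eIF2α. General translation then slows while the ATF4 mRNA is translated more, and ATF4, a basic leucine zipper (bZIP) transcription factor, switches on genes for the synthesis, uptake and tRNA charging of amino acids. Because ATF4 is controlled mainly at translation, its mRNA is only a partial measure of its activity, and the mRNA of its targets is the usual readout. In pluripotent stem cells, which divide fast, serine synthesis and one-carbon metabolism supply nucleotides and methyl groups.

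Members of the pathway are known for a DNA element at which ATF4 binds together with a C/EBP protein. The promoters of the 9 genes were therefore searched on both strands for the letters TGATGNAA, which read TTNCATCA on the other strand. Promoters were taken from RefSeq on GRCm38.p6, from 250 bases before to 50 bases after each start site, and all 9 genes had at least one. The element's letters occurred in 3 of the 9 genes (33.3%) and in 1219 of the 27025 genes with a promoter in the table (4.51%). The 3 genes were Trib3, Chac1 and Asns, and the 30 bases around each match are shown. The match is in capitals, and each sequence runs 5′ to 3′ on the strand of its gene.
Trib3, chr2:152344028-152344057 on the minus strand, the match beginning at base 15 after the start: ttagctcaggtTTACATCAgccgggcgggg
Chac1, chr2:119351038-119351067 on the plus strand, the match beginning at base -193: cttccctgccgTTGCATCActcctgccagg
Asns, chr6:7693214-7693243 on the minus strand, the match beginning at base -23: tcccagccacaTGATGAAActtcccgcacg

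In Trib3 and Chac1 the element lay in the reverse orientation, and in Asns in the forward orientation. The match is a description of these letters and not a measured binding site. Binding was not analysed here.

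In WT cells the 9 genes spanned a wide range of levels, from enzymes and a factor that are strongly expressed to stress factors that are weakly expressed. Levels are given as normalized CPM, the counts of a gene scaled to a common library size, and levels of different genes were compared per kilobase of the gene width in the counts table. Atf4 mRNA was highest, at 200 ± 21.2 normalized CPM per kilobase (SD, n = 11 WT libraries). Asns, which makes asparagine, followed at 125 ± 33.1, and Psat1, the aminotransferase of serine synthesis, at 124 ± 23.5. Sesn2, an inhibitor of mTORC1 that senses leucine, was at 49.5 ± 13.7. Phgdh, which starts serine synthesis from glycolysis, was at 25.6 ± 3.46 and Trib3, a pseudokinase that restrains ATF4, at 25.5 ± 6.47. Lowest were Chac1, which degrades glutathione, at 12.9 ± 3.49, Ddit3, which encodes the bZIP factor CHOP, at 11.9 ± 5.30, and Atf5, a bZIP factor translated in the same way as ATF4, at 11.5 ± 5.97. In this order Asns and Psat1, Phgdh and Trib3, and the last 3 genes lay closer to each other than their SD. The fewest counts of any member in any library were 133.

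A few facts about the libraries touch these results. Total counts were between 13.4 and 36.7 M (mega) per library, and the smallest level this allows, set at 3 counts, was at most 0.22 normalized CPM. The mRNA of the targeted gene was lower in Rsf1Δ, Acf1Δ, WstfΔ and BptfΔ, with log2 fold changes between -2.40 and -1.72. It was not called lower in Tip5Δ (-0.26, edgeR adjusted p = 0.0533), and it was higher, by 0.37 (edgeR adjusted p = 0.000154), in the Cecr2Δ-labelled libraries, which are named by their label throughout (protein was not analysed here). The paper reports that the deleted subunit could not be detected by western blot in any of the deletion lines. Squared differences between the counts of paired libraries of 1 group were between 1.38 (WstfΔ) and 20.4 times what sampling gives. The widest pairs were in WT of batch D (8.53, 9.66 and 20.4), Acf1Δ (19.6) and WT of batch E (11.4). For the marker counts that follow, 7.45% of all genes rose and 13.1% fell in Rsf1Δ, 16.4% and 18.3% in WstfΔ, 2.84% and 6.23% in Tip5Δ, 21.4% and 20.2% in BptfΔ, 9.52% and 8.83% in the Cecr2Δ-labelled libraries, and 15.1% and 16.7% in Acf1Δ. Summed pluripotency markers were between 2530 and 4120 normalized CPM in every library, and they moved with some lines. The sums were 2530 to 2620 in WT of batch A against 3460 to 3470 in Rsf1Δ and 3760 to 3810 in WstfΔ, with all 6 markers raised in both lines, and 2610 to 2680 in WT of batch C against 3900 in BptfΔ, with 5 raised. The Cecr2Δ-labelled libraries had 4 raised, with sums of 3890 to 4120 against 3440 to 3710 in WT. Acf1Δ had 2 raised and 2 lowered, with sums of 3760 to 3910 against 3180 to 3390 in WT. In Tip5Δ the sums were 3020 to 3120 against 3090 in WT, with 0 called by edgeR or DESeq2 and 2 at an unadjusted p under 0.05 in edgeR. All 7 primitive endoderm markers, which mark cells that arise in serum cultures of mESCs, were lower in each line but Acf1Δ, and their summed level was 145 to 153 normalized CPM in WT of batch C but 13.9 to 14.4 in BptfΔ. The sums were 330 to 338 in WT of batch A against 139 to 147 in Rsf1Δ and 133 to 139 in WstfΔ, 333 to 353 in WT of batch B against 73.1 to 80.2 in Tip5Δ, and 101 to 117 in WT of batch D against 29.5 to 34.1 in the Cecr2Δ-labelled libraries. In Acf1Δ 3 of the 7 were higher and 1 was lower, with sums of 269 to 306 against 242 to 249 in WT. Summed fibroblast markers, 6 genes of which all but Lum and Postn passed the filter, were at most 32.2, with Lum, Postn and Col1a2 at 0 in both BptfΔ libraries. Of the 4 tested, 3 were lower in each line but the Cecr2Δ-labelled libraries, and the fourth was higher in WstfΔ. The sums were 18.4 to 19.0 in WT of batch A against 9.15 to 10.1 in Rsf1Δ and 17.3 to 19.8 in WstfΔ, 31.7 to 32.2 against 17.6 to 22.2 in Tip5Δ, 7.88 to 8.5 against 2.54 to 3.11 in BptfΔ, 16.4 to 18.3 against 15.6 to 15.8 in the Cecr2Δ-labelled libraries, and 24.3 to 24.5 against 12.8 in Acf1Δ. In bulk RNA, fewer cells of a type and less RNA per cell cannot be told apart, and the part of each of these 3 marker lists in the results below was not tested. The 4 libraries of batch C also hold RNA without a poly(A) tail, with Rpph1 between 3290 and 4820 normalized CPM against at most 3.39 in the 20 others. The line and the WT of that batch share this property.

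More of the 9 genes rose than fell in 5 of the 6 lines, and the changes were small. A gene was called raised or lowered where edgeR's quasi-likelihood test gave an adjusted p under 0.01 over all genes tested. Over the 54 values of 9 genes in 6 lines, 27 were raised, 2 were lowered and 25 were not called, and only 1 of the 54 differed from WT by more than 2-fold. In BptfΔ 8 of the 9 genes rose, while 21.4% of all genes rose and 20.2% fell. In the Cecr2Δ-labelled libraries 7 of the 9 rose, where 9.52% of all genes rose and 8.83% fell. In Tip5Δ 4 of the 9 rose against 2.84% of all genes, with 6.23% lowered. In Acf1Δ 4 of the 9 rose against 15.1% of all genes, with 16.7% lowered, and in Rsf1Δ 3 of the 9 rose against 7.45%, with 13.1% lowered. In WstfΔ 1 of the 9 rose and 2 fell, near the shares of all genes there, of which 16.4% rose and 18.3% fell. The 9 genes had a median log2 fold change of 0.67 in BptfΔ, 0.45 in the Cecr2Δ-labelled libraries, 0.27 in both Acf1Δ and Tip5Δ, 0.15 in Rsf1Δ and -0.04 in WstfΔ. The median of all genes tested was between -0.03 and 0.01 in the 6 lines.

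**Figure D1:**
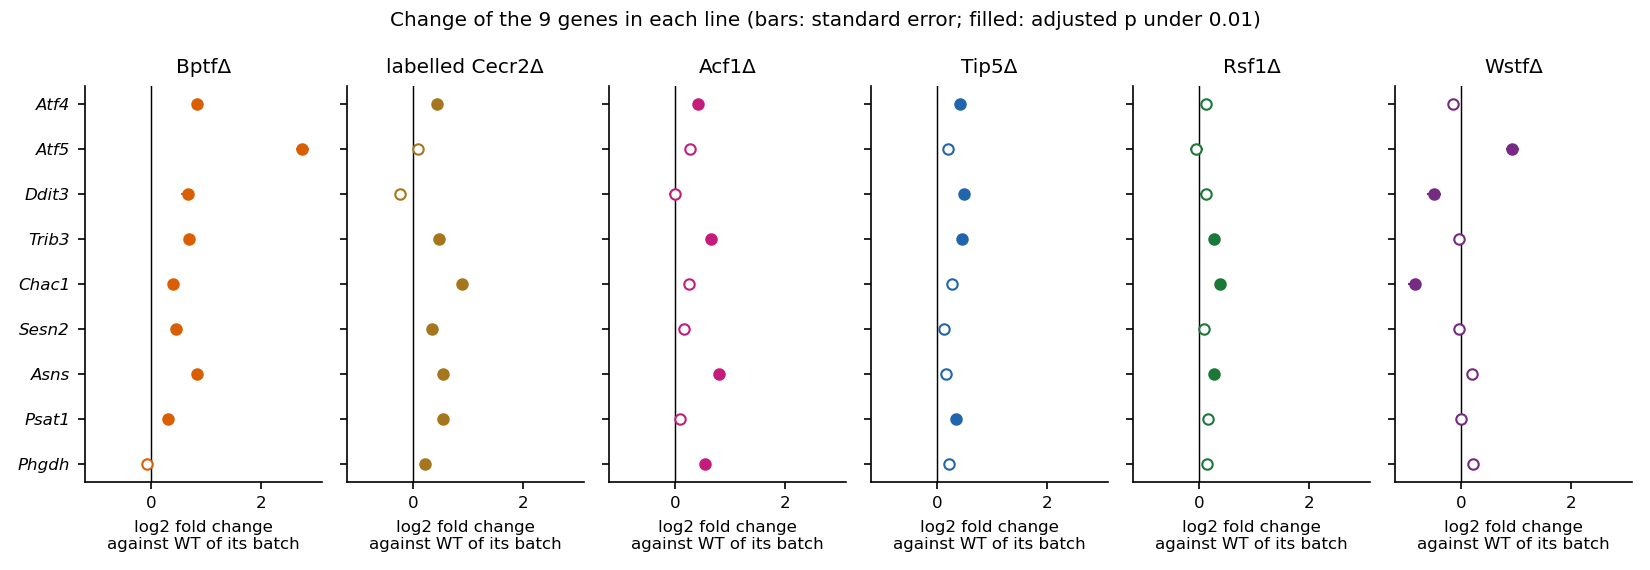
Log2 fold change of each of the 9 genes (rows) in each deletion line (panels) against WT of its batch. Horizontal bars are standard errors, mostly hidden by the points, and filled points have an edgeR adjusted p under 0.01. Filled points lie to the right of 0 in all panels except WstfΔ, where Ddit3 and Chac1 lie to the left, and Atf5 in BptfΔ, at 2.75, is the point farthest from 0.

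The 3 transcription factors were measured first. Atf4 (gene ID 11911, chromosome 15 from 80255184 to 80257545 in GRCm38, the assembly mm10) rose in 4 lines. In WT of batch C its level was 328 and 324 normalized CPM, and in BptfΔ it was 582 and 591. This is a 1.8-fold rise (log2 fold change 0.85 ± 0.059, with its standard error, SE, edgeR adjusted p = 3.4e-12), and it is the largest of the 6 lines. In batch D, WT libraries were at 352, 351 and 352 and those labelled Cecr2Δ at 482, 474 and 482 (log2 fold change 0.45, edgeR adjusted p = 4.38e-08). In Tip5Δ Atf4 was at 482 and 506 against 375 and 367 in WT (0.41, edgeR adjusted p = 7.65e-06). In Acf1Δ it was at 479.5 and 553 against 400.4 and 375 (0.41, edgeR adjusted p = 3.02e-06). In these 4 lines the libraries did not overlap with WT of their batch, and the line mean lay above all 11 WT libraries. In batch A, WT was at 296 and 276, Rsf1Δ at 312 and 309 (0.12, edgeR adjusted p = 0.134) and WstfΔ at 254 and 264 (-0.14, edgeR adjusted p = 0.054).

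Atf5 (gene ID 107503, chromosome 7 from 44812256 to 44816658) had the largest change of any of the 9 genes. It was at 8.19 and 7.76 normalized CPM in WT of batch C and at 54.5 and 53.1 in BptfΔ. The rise was 6.74-fold (log2 fold change 2.75 ± 0.118 SE, edgeR adjusted p = 1.13e-16). It was the only one of the 54 values past a 2-fold change, a size to which 5.25% of all genes rose in BptfΔ with the same threshold. Atf5 in WT of batch C was also the lowest among the 5 batches. Against the other 9 WT libraries, which spanned 13.5 to 39.5, the level in BptfΔ was still above each one. Batch C, unlike the other batches, also holds RNA without a poly(A) tail, so this comparison is between unlike libraries. In WstfΔ Atf5 rose 1.9-fold, from 15.4 and 13.5 to 26.5 and 28.7 (log2 fold change 0.93 ± 0.112 SE, edgeR adjusted p = 1.37e-07), and this level lay within the WT range of the other batches. Without batch in the model, which then sets each line against WT of all batches, the Atf5 calls in BptfΔ and WstfΔ were lost. The log2 fold change was 1.23 in BptfΔ (edgeR adjusted p = 0.0147) and 0.26 in WstfΔ (edgeR adjusted p = 0.717). In the other 4 lines Atf5 was not called, with log2 fold changes between -0.05 and 0.27. Atf5 overlaps Nup62 and Il4i1b in the annotation, and how reads in shared sequence were counted is not given in the sources used here. In BptfΔ Nup62, a nuclear pore gene, had a log2 fold change of 0.26 (edgeR adjusted p = 0.00386) and Il4i1b one of 0.37 (edgeR adjusted p = 0.258), and in WstfΔ these were 0.02 (edgeR adjusted p = 0.845) and 0.79 (edgeR adjusted p = 0.0127).

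Ddit3 (gene ID 13198, chromosome 10 from 127290793 to 127296291) moved in both directions. It rose in BptfΔ, from 18.4 and 16.7 normalized CPM to 26.8 and 29.1 (log2 fold change 0.67 ± 0.114 SE, edgeR adjusted p = 1.8e-05). In Tip5Δ it was at 50.7 and 56.7 against 39.2 and 37.3 in WT (0.49, edgeR adjusted p = 0.000585). In WstfΔ it fell to 10.8 and 12.8 from 17.2 and 16.1 (-0.50 ± 0.128 SE, edgeR adjusted p = 0.00214), 1.42-fold lower than in WT. The libraries did not overlap with WT in any of these comparisons, but the calls in Tip5Δ and WstfΔ were each lost when either of 2 libraries was left out. Without Tip5Δ replicate 2 the adjusted p was 0.0304 and without WT replicate 2 of batch B it was 0.0167. Without WstfΔ replicate 1 it was 0.0661 and without WT replicate 1 of batch A it was 0.0218. In the Cecr2Δ-labelled libraries Ddit3 was at 11.7, 11.3 and 12.2 against 13.9, 14.1 and 13.3 (-0.23, edgeR adjusted p = 0.0642). In Rsf1Δ and Acf1Δ the libraries overlapped with WT. The annotation places Mbd6 and Mars1, the methionyl-tRNA synthetase gene, over part of Ddit3. In BptfΔ Mbd6 had a log2 fold change of 0.58 (edgeR adjusted p = 0.00928) and Mars1 one of 0.32 (edgeR adjusted p = 2.45e-05).

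**Figure D2:**
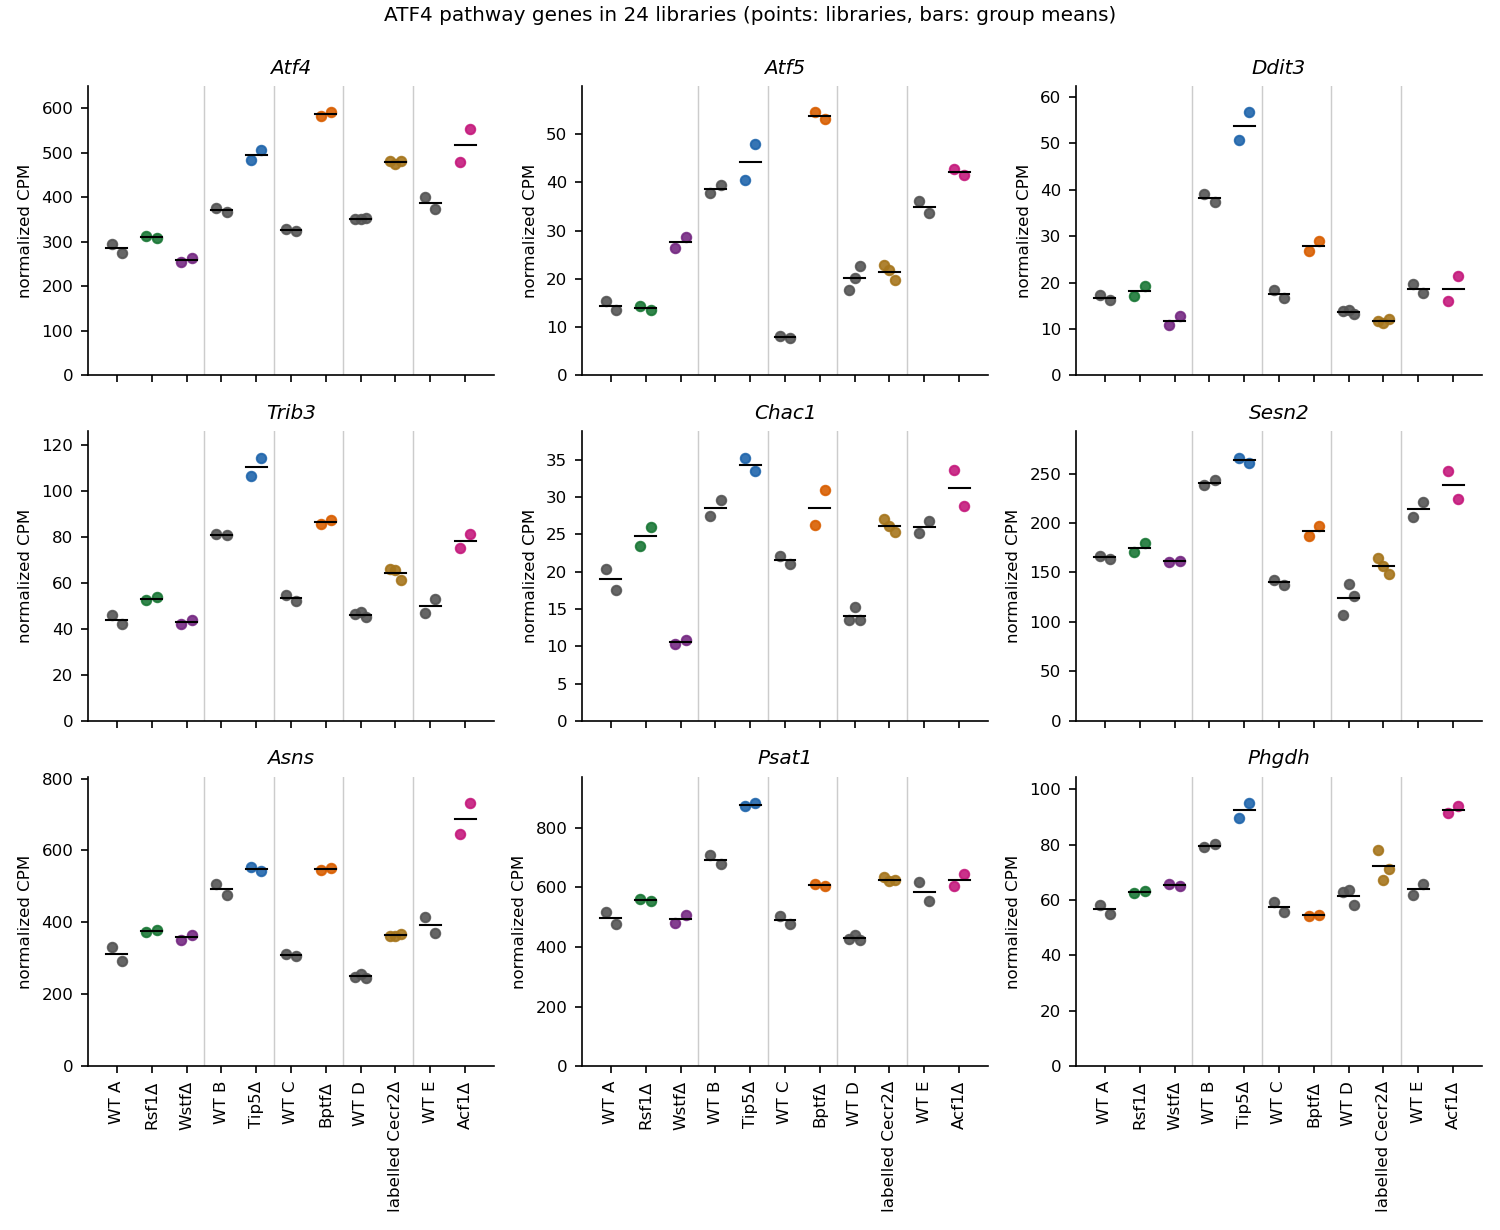
Normalized CPM of the 9 genes in each of the 24 libraries, with one panel per gene, points for libraries, short bars for group means and grey lines between batches. Each line stands to the right of the WT libraries of its batch. Atf5 in BptfΔ, at 53.1 and 54.5, stands far above WT of the same batch at 7.76 and 8.19, and the WT points of batch B stand above those of the other batches for 8 of the 9 genes.

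Of the stress effectors, Trib3 (gene ID 228775, chromosome 2 from 152337425 to 152344060) was raised in 5 lines, although the call in Rsf1Δ did not hold without single libraries. In BptfΔ it was at 85.5 and 87.4 normalized CPM against 54.9 and 52.1 in WT (log2 fold change 0.69 ± 0.071 SE, edgeR adjusted p = 5.25e-09). In Acf1Δ it was at 75.3 and 81.4 against 47.0 and 52.9 (0.65 ± 0.068 SE, edgeR adjusted p = 3.5e-08). In the Cecr2Δ-labelled libraries it was at 65.8, 65.7 and 61.3 against 46.4, 47.1 and 45.0 (0.48, edgeR adjusted p = 1.9e-07). These rises were 1.62-fold, 1.57-fold and 1.39-fold, and no line library was as low as a WT library of its batch. In Tip5Δ Trib3 was at 106 and 114 against 81.0 and 80.7 (0.45, edgeR adjusted p = 1.44e-05), the highest level of all groups. In batch A, WT was at 46.1 and 41.9, and Rsf1Δ at 52.5 and 53.7 (0.27, edgeR adjusted p = 0.00455). In WstfΔ Trib3 was at 42.1 and 43.7, which overlapped with WT (-0.04, edgeR adjusted p = 0.71).

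Chac1 (gene ID 69065, chromosome 2 from 119351242 to 119354326) had the widest spread among the lines after Atf5. It was at 27.1, 26.1 and 25.4 normalized CPM in the Cecr2Δ-labelled libraries against 13.5, 15.3 and 13.5 in WT, a 1.86-fold rise (log2 fold change 0.89 ± 0.078 SE, edgeR adjusted p = 1.07e-09). WT of batch D had the lowest level of Chac1 among the WT batches, and the raised level did not exceed the highest of the 11 WT libraries. In WstfΔ Chac1 fell to 10.3 and 10.8 from 20.3 and 17.6, 1.8-fold lower than in WT (-0.85 ± 0.118 SE, edgeR adjusted p = 1.39e-06), and below all 11 WT libraries. Rsf1Δ, compared with the same WT libraries, went the other way, to 23.4 and 26.1 (0.38, edgeR adjusted p = 0.00347). In BptfΔ Chac1 was at 26.3 and 30.9 against 22.1 and 21.1 (0.41, edgeR adjusted p = 0.00138), a call that was lost without BptfΔ replicate 2 (0.29, edgeR adjusted p = 0.0611) and without WT replicate 2 of batch C (edgeR adjusted p = 0.0174). In Tip5Δ and Acf1Δ Chac1 was not called, with log2 fold changes of 0.27 and 0.26 (edgeR adjusted p = 0.0488 and 0.0231).

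Sesn2 (gene ID 230784, chromosome 4 from 132492804 to 132510456) changed little. It was at 186 and 197 normalized CPM in BptfΔ against 143 and 138 in WT (log2 fold change 0.45 ± 0.081 SE, edgeR adjusted p = 3.49e-05). The Cecr2Δ-labelled libraries were at 164, 156 and 149 against 107, 138 and 126 (0.34 ± 0.065 SE, edgeR adjusted p = 0.000224), with WT replicate 1 lower than the other two. In these 2 lines the libraries lay above WT of their batch and between the lowest and highest of the 11. Without batch in the model, which sets each line against WT of all batches, neither rise was called. The log2 fold change was then -0.14 in the Cecr2Δ-labelled libraries and 0.16 in BptfΔ (edgeR adjusted p = 0.574 in BptfΔ). In the other 4 lines the log2 fold changes were between -0.04 and 0.16 and none was called.

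The enzymes of amino acid synthesis were each raised in at least 1 line. Asns (gene ID 27053, chromosome 6 from 7675165 to 7693209) rose 1.78-fold in BptfΔ and 1.75-fold in Acf1Δ. It was at 547 and 551 normalized CPM in BptfΔ against 311 and 306 in WT (log2 fold change 0.83 ± 0.065 SE, edgeR adjusted p = 2.64e-11). In Acf1Δ it was at 645 and 732 against 416 and 372 (0.81 ± 0.064 SE, edgeR adjusted p = 2.59e-10), the highest level of all groups. The level in both lines exceeded that in each of the 11 WT libraries, which spanned 244 to 507 with a median of 311. In the Cecr2Δ-labelled libraries Asns was at 362, 362 and 367 against 248, 257 and 244 (0.54, edgeR adjusted p = 6.29e-09). In batch A, WT was at 330.1 and 294, Rsf1Δ at 374 and 377 (0.27, edgeR adjusted p = 0.00191) and WstfΔ at 352 and 364 (0.20, edgeR adjusted p = 0.0133). In Tip5Δ it was at 553 and 543 against 507 and 477 (0.16, edgeR adjusted p = 0.102). Every line's libraries were above the WT libraries of their batch.

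Psat1 (gene ID 107272, chromosome 19 from 15905123 to 15925059) and Phgdh (gene ID 236539, chromosome 3 from 98313171 to 98339969) act in the same pathway, and in several lines only one of them was called. Their changes were not tested against each other. Psat1 was at 634, 622 and 625 normalized CPM in the Cecr2Δ-labelled libraries against 426, 439 and 422 in WT (log2 fold change 0.55 ± 0.047 SE, edgeR adjusted p = 8.67e-10). In Tip5Δ it was at 874 and 883 against 709.5 and 678 (0.34 ± 0.058 SE, edgeR adjusted p = 9.07e-05), and in BptfΔ at 613 and 603 against 506 and 477 (0.31 ± 0.058 SE, edgeR adjusted p = 7.07e-05). The 3 groups did not overlap with WT of their batch, and only the level in Tip5Δ lay above all 11 WT libraries. In Acf1Δ Psat1 was at 605 and 647, which overlapped with WT at 618 and 554 (0.09, edgeR adjusted p = 0.192). Phgdh, by contrast, rose in Acf1Δ to 91.5 and 93.9 normalized CPM from 61.9 and 65.9, a 1.45-fold rise (0.54 ± 0.068 SE, edgeR adjusted p = 5.78e-07). In Tip5Δ Phgdh was at 89.7 and 95.05 against 79.1 and 80.3 (0.21, edgeR adjusted p = 0.0306). It was called there when the line was fitted with WT of its batch alone (0.21, edgeR adjusted p = 0.000221). In BptfΔ Phgdh was at 54.4 and 54.7 against 59.2 and 55.6 (-0.07 ± 0.073 SE, edgeR adjusted p = 0.408), and it was the only one of the 9 genes without a call there. In the Cecr2Δ-labelled libraries Phgdh was at 78.0, 67.1 and 71.3 against 63.0, 63.5 and 58.2 (0.23, edgeR adjusted p = 0.00266), a call that was lost without replicate 1 of that group (edgeR adjusted p = 0.0302) and without WT replicate 3 of batch D (edgeR adjusted p = 0.0221). A processed copy of Phgdh exists in the genome, and how reads matching several places were counted is not given in the sources used here.

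The 3 calls in Rsf1Δ did not hold without certain single libraries. Trib3, Chac1 and Asns were raised there by log2 fold changes of 0.27, 0.38 and 0.27. With the replicate number as a block, Asns and Chac1 were no longer called (edgeR adjusted p = 0.0107 and 0.0136). Without Rsf1Δ replicate 2, or without WT replicate 2 of batch A, 0 of the 9 genes were called in edgeR's test, with an unadjusted p under 0.05 for 4 and 3 genes in these fits. Without Rsf1Δ replicate 1 only Chac1 was called, and without WT replicate 1 of batch A the 3 calls held.

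The size of the change differed among the 6 lines for each of the 9 genes, by a test that all 6 lines have the same log2 fold change, which 65.3% of all genes passed. The edgeR adjusted p of this test was between 4.7e-14 for Atf5 and 0.00538 for Sesn2. With the lines put in order of their change, neighbours in the order mostly did not differ beyond their error. For Atf4, BptfΔ was above the Cecr2Δ-labelled libraries, next in the order (edgeR adjusted p = 0.000105), and Rsf1Δ was above WstfΔ (edgeR adjusted p = 0.00081). For Atf5, BptfΔ was above WstfΔ (edgeR adjusted p = 2.08e-09), and WstfΔ above Acf1Δ (edgeR adjusted p = 0.000558). For Chac1, the Cecr2Δ-labelled libraries were above BptfΔ (edgeR adjusted p = 0.0029), and WstfΔ was below Acf1Δ, its neighbour (edgeR adjusted p = 1.02e-06). Trib3 differed between Rsf1Δ and WstfΔ (edgeR adjusted p = 0.00139), and Phgdh between Acf1Δ and the Cecr2Δ-labelled libraries (edgeR adjusted p = 0.00528). For Ddit3, Sesn2, Asns and Psat1 no neighbours differed. Rsf1Δ and WstfΔ share a batch and were also set against each other without WT, a comparison that 33.3% of all genes passed, and 5 of the 9 genes passed it. Chac1 was higher in Rsf1Δ by a log2 difference of 1.23 (edgeR adjusted p = 2.09e-09), Ddit3 by 0.62 (edgeR adjusted p = 0.000244), Trib3 by 0.31 and Atf4 by 0.26. Atf5 was lower in Rsf1Δ, with a log2 difference of -0.98 (standard error 0.113, edgeR adjusted p = 7.63e-08).

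The 9 genes also differed among WT cells of the 5 batches, which carry no deletion. All 9 passed the test of equal levels in the batches, as did 73.1% of all genes. Atf5 differed most, with 7.97 ± 0.302 normalized CPM (SD, n = 2) in batch C and 38.6 ± 1.27 (SD, n = 2) in batch B, a 4.85-fold difference (edgeR adjusted p = 3.39e-15). The libraries of batch C also hold RNA without a poly(A) tail, so a difference of libraries and one of cells cannot be told apart there. Ddit3 differed 2.78-fold, between batches D and B (edgeR adjusted p = 2.41e-12), and Chac1 2.03-fold, between the same batches (edgeR adjusted p = 4.48e-10). The least different were Atf4, with 286 ± 14.2 in batch A and 388 ± 18.2 in batch E, and Phgdh, 1.36-fold and 1.41-fold. Batch B was highest for 8 of the 9 genes and batch D lowest for 5. For each gene but Phgdh, whose rise in Acf1Δ was 1.45-fold, the fold difference between WT batches was larger than the change in Tip5Δ and in Acf1Δ.

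**Figure D3:**
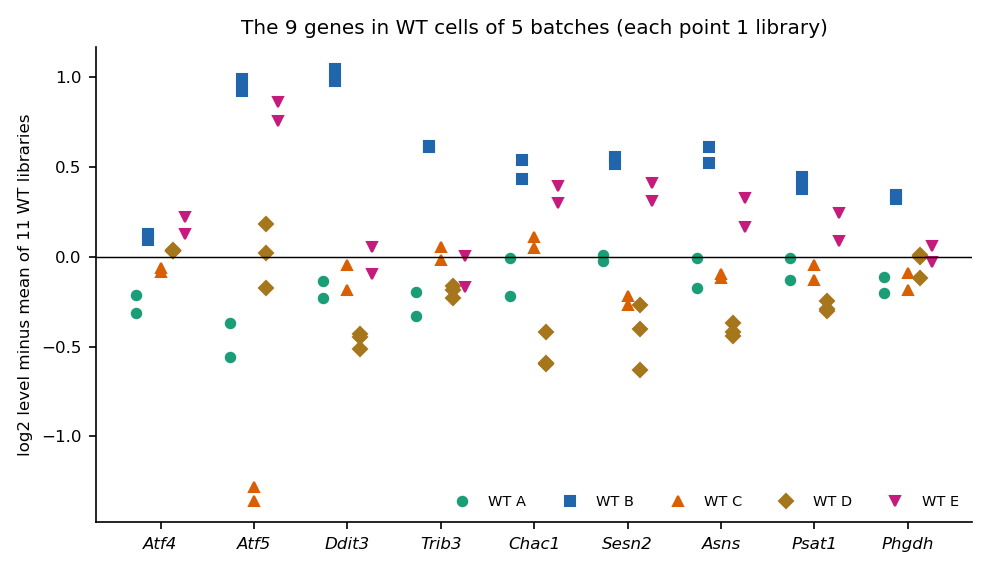
Log2 level of each of the 9 genes in the 11 WT libraries, minus the mean of these libraries, with a symbol and colour for each batch. Batch B (squares) lies at the top for all genes but Atf4, and Atf5 in batch C (triangles) lies more than 1 below the mean.

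Other genes of the pathway, in 5 lists by role with 51 genes, moved mainly upwards in Tip5Δ and in the Cecr2Δ-labelled libraries. In Tip5Δ 20 of the 51 rose (39.2%, against 2.84% of all genes) and 0 fell (6.23% of all genes). This count was 13 without Tip5Δ replicate 1, 11 without Tip5Δ replicate 2, 12 without WT replicate 2 of batch B, and 33 (31 raised) with WT of its batch alone. The Cecr2Δ-labelled libraries had 28 raised (54.9%, against 9.52%) and 1, Atf3, lowered (1.96%, against 8.83%). In BptfΔ 26 rose (51%, against 21.4%) and 11 fell (21.6%, against 20.2%), and in Acf1Δ 18 rose (35.3%, against 15.1%) and 6 fell (11.8%, against 16.7%). In place of these 24 calls in Acf1Δ, 14 (9 raised) were made without WT replicate 1 of batch E and 9 (6 raised) with WT of its batch alone. In Rsf1Δ 7 rose (13.7%, against 7.45%) and 8 fell (15.7%, against 13.1%), and in WstfΔ 9 rose (17.6%, against 16.4%) and 15 fell (29.4%, against 18.3%). The shares lowered in BptfΔ and Rsf1Δ and the share raised in WstfΔ were thus close to those of all genes. The median log2 fold change of the 51 genes was 0.25 in Tip5Δ, 0.23 in the Cecr2Δ-labelled libraries, 0.23 in BptfΔ, 0.06 in Acf1Δ, 0.06 in Rsf1Δ and -0.03 in WstfΔ.

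Enzymes for serine, glycine, proline and one-carbon units rose in several lines. Of its 10 genes, 8 rose and 0 fell in Tip5Δ (2.84% and 6.23% of all genes) and in the Cecr2Δ-labelled libraries (9.52% and 8.83%), 7 rose and 1 fell in Acf1Δ (15.1% and 16.7%), and 6 rose and 3 fell in BptfΔ (21.4% and 20.2%). Rsf1Δ had 3 raised and 2 lowered (7.45% and 13.1% of all genes) and WstfΔ 3 raised and 3 lowered (16.4% and 18.3%). Aldh1l2, a mitochondrial folate enzyme, rose 2.97-fold in BptfΔ, from 3.19 ± 0.356 to 9.47 ± 0.0712 normalized CPM (SD, n = 2 each, edgeR adjusted p = 5.27e-08). Pycr1, the last enzyme of proline synthesis, rose 2.12-fold in the Cecr2Δ-labelled libraries, from 17.9 ± 1.03 to 38.1 ± 1.4 (SD, n = 3 each, edgeR adjusted p = 7.78e-14). Gpt2, a mitochondrial alanine aminotransferase, rose 1.85-fold there (edgeR adjusted p = 4.13e-14). Shmt2, the mitochondrial enzyme that turns serine into glycine, was raised in all 6 lines, with log2 fold changes between 0.22 and 0.62. Psph, which completes serine synthesis after Phgdh and Psat1, was raised in 5 lines, and in WstfΔ its log2 fold change was 0.08. Mthfd2, the mitochondrial folate dehydrogenase, went in both directions, with 0.47 in Acf1Δ and -0.55 in BptfΔ. Shmt2 and Mthfd2 were chosen with their values in view.

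Of the 13 tRNA synthetases, counted with the tRNA exporter Xpot, most rose in 3 lines. Of these, 10 rose in the Cecr2Δ-labelled libraries (76.9%, against 9.52% of all genes), in Tip5Δ 7 (53.8%, against 2.84%), in Acf1Δ 4 (30.8%, against 15.1%) and in Rsf1Δ 2 (15.4%, against 7.45%), with 0 lowered in these lines. In BptfΔ 8 rose (61.5%, against 21.4%) and 3 fell (23.1%, near the 20.2% of all genes), and in WstfΔ 0 rose and 4 fell (30.8%, against 18.3%). The largest change in this list was that of Yars, 1.43-fold in Acf1Δ, from 236 ± 5.40 to 337 ± 14.5 normalized CPM (SD, n = 2 each, edgeR adjusted p = 2.27e-07). Nars rose 1.32-fold in BptfΔ (edgeR adjusted p = 1.29e-06) and Wars 1.32-fold in Acf1Δ (edgeR adjusted p = 6.16e-06).

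Of the 9 amino acid transporters, 5 rose in Acf1Δ (55.6%, against 15.1% of all genes), 4 in the Cecr2Δ-labelled libraries (44.4%, against 9.52%) and 2 in Tip5Δ (22.2%, against 2.84%), with 0 lowered in these lines. In BptfΔ 4 rose (44.4%, against 21.4%) and 2 fell (22.2%, against 20.2%). In Rsf1Δ 1 rose and 1 fell (11.1% each, against 7.45% and 13.1%), and in WstfΔ 1 rose (11.1%, against 16.4%) and 4 fell (44.4%, against 18.3%). Slc38a2, which carries neutral amino acids such as glutamine, fell in WstfΔ from 568 ± 1.21 to 279 ± 3.77 normalized CPM (SD, n = 2 each), 2.04-fold lower (edgeR adjusted p = 1.62e-13). Slc6a9, a glycine transporter, was 1.93-fold lower in WstfΔ (edgeR adjusted p = 2.56e-05). Slc1a4, which carries alanine, serine and cysteine, was 1.83-fold higher in the Cecr2Δ-labelled libraries (edgeR adjusted p = 1e-11).

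The bZIP partners and other stress effectors held the largest single changes. Of 10 genes, 6 rose and 0 fell in BptfΔ (21.4% and 20.2% of all genes), 4 rose and 1 fell in the Cecr2Δ-labelled libraries (9.52% and 8.83%), and 2 rose and 0 fell in Tip5Δ (2.84% and 6.23%). In WstfΔ 3 rose and 2 fell (16.4% and 18.3% of all genes), and 1 rose and 3 fell in Rsf1Δ (7.45% and 13.1%) and in Acf1Δ (15.1% and 16.7%), so that the 2 lowered in WstfΔ and the 1 raised in Rsf1Δ and Acf1Δ were near the share of all genes. Jdp2, a bZIP repressor, rose 7.28-fold in BptfΔ, from 3.08 ± 0.473 to 22.5 ± 0.731 normalized CPM (SD, n = 2 each, edgeR adjusted p = 7.84e-16), which is of the same order as the rise of Atf5. Gdf15, a stress cytokine, rose 5.92-fold in BptfΔ, from 1.13 ± 0.0325 to 6.74 ± 0.21 (SD, n = 2 each, edgeR adjusted p = 3.28e-08). Atf3, a bZIP factor and a known ATF4 target, fell in 3 lines. It was 4.77-fold lower in WstfΔ, at 6.10 ± 0.87 against 29.1 ± 1.0 (SD, n = 2 each, edgeR adjusted p = 1.55e-13), and its log2 fold change was -1.60 in Rsf1Δ and -1.27 in the Cecr2Δ-labelled libraries. It was not called in Tip5Δ (-0.32), BptfΔ (0.15) and Acf1Δ (0.29).

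Of the 51 genes, 39 had a RefSeq promoter in the table. The element's letters occurred in 13 of these 39 (33.3%), against 4.51% of all genes with a promoter. The 30 bases around the match are shown for 4 of them, Jdp2 and Atf3 because they had the largest rise and the largest fall called among the pathway genes, and Pycr1 and Slc1a4 because they rose in the Cecr2Δ-labelled libraries.
Jdp2, chr12:85599372-85599401 on the plus strand: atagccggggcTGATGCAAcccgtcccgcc
Atf3, chr1:191183425-191183454 on the minus strand: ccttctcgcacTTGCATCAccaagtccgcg
Pycr1, chr11:120643833-120643862 on the minus strand: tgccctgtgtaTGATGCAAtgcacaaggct
Slc1a4, chr11:20332699-20332728 on the minus strand: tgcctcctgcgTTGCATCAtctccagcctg

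Jdp2 and Atf3 share the letters. In WstfΔ mean Jdp2 was at 9.85 normalized CPM against 4.92 in WT, and mean Atf3 at 6.10 against 29.1. In Rsf1Δ both means were below WT of batch A, at 2.745 for Jdp2 and 9.58 for Atf3. In Acf1Δ mean Jdp2 was at 4.69 against 12.45 in WT, and mean Atf3 at 18.9 against 15.4. The share of genes with the letters holds for the 39 genes matched, which are too few of the 51 for a share over the whole lists.

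The kinases and phosphatase subunits of eIF2α, listed with Gcn1, Impact and Eif2s1, stand upstream of ATF4. In each line but BptfΔ most genes of this list were not called. Of 9 genes, 2 rose and 3 fell in BptfΔ (21.4% and 20.2% of all genes), 2 rose and 2 fell in WstfΔ (16.4% and 18.3%), and 1 rose and 2 fell in Acf1Δ (15.1% and 16.7%). Rsf1Δ had 0 raised and 2 lowered (7.45% and 13.1% of all genes), Tip5Δ 1 raised and 0 lowered (2.84% and 6.23%) and the Cecr2Δ-labelled libraries 2 raised and 0 lowered (9.52% and 8.83%). Eif2ak3, which encodes the kinase PERK of the endoplasmic reticulum, was 2.29-fold lower in Rsf1Δ, at 16.7 ± 0.817 against 38.3 ± 1.48 normalized CPM (SD, n = 2 each, edgeR adjusted p = 4.27e-12). Impact, an inhibitor of the amino acid sensing kinase GCN2, was 1.67-fold lower in WstfΔ (edgeR adjusted p = 8.22e-12). Ppp1r15b, which directs a phosphatase to eIF2α, rose 1.5-fold in BptfΔ (edgeR adjusted p = 5.1e-10).

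**Figure D4:**
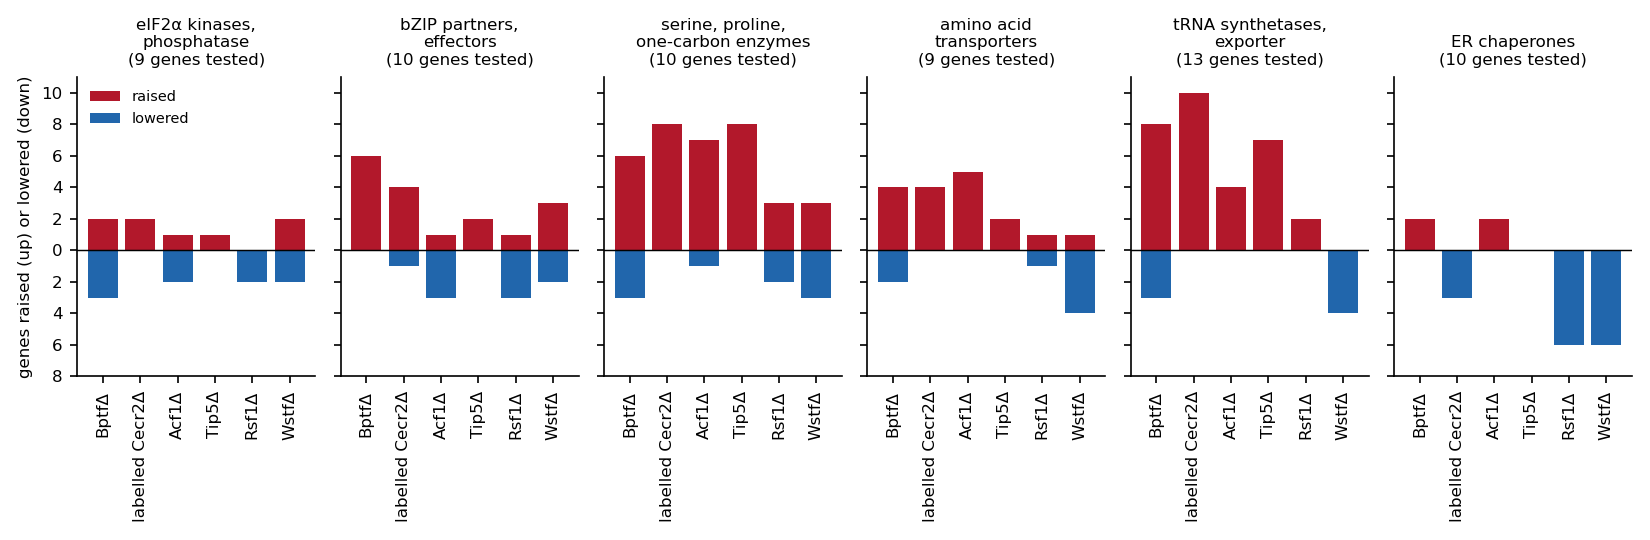
Number of genes raised (bars up) and lowered (bars down) at an edgeR adjusted p under 0.01 in each line, for the 5 lists of pathway genes and for endoplasmic reticulum chaperones. The enzymes and tRNA synthetases have 6 to 10 genes raised in BptfΔ, the Cecr2Δ-labelled libraries and Tip5Δ, and 7 and 4 in Acf1Δ, and the chaperones have 6 genes lowered in Rsf1Δ and in WstfΔ.

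Chaperones of the endoplasmic reticulum, which fold proteins there, were counted beside the pathway. Of 10 chaperone genes, 2 rose and 0 fell in edgeR's test in BptfΔ (21.4% and 20.2% of all genes) and in Acf1Δ (15.1% and 16.7%), and 0 rose and 3 fell in the Cecr2Δ-labelled libraries (9.52% and 8.83%). In Rsf1Δ and in WstfΔ 0 rose and 6 fell, where 13.1% and 18.3% of all genes fell. DESeq2 called 1 chaperone gene lower in BptfΔ, and its other counts of 0 were the same. In Tip5Δ 0 of the 10 were called by edgeR or by DESeq2, and 4 had an unadjusted p under 0.05 in edgeR. The largest changes were those of Sdf2l1 (0.48 in Acf1Δ, edgeR adjusted p = 1.5e-05), Manf (-0.48 in WstfΔ, edgeR adjusted p = 1.38e-05) and Hsp90b1 (-0.47 in Rsf1Δ, edgeR adjusted p = 0.000104). Targets of p53, which share Sesn2 and some other stress genes with the pathway, were also counted. Of 8 genes, 6 rose and 1 fell in edgeR's test in BptfΔ (21.4% and 20.2% of all genes), and 4 rose and 0 fell in WstfΔ (16.4% and 18.3%) and in the Cecr2Δ-labelled libraries (9.52% and 8.83%), where DESeq2 called 4 higher and 1 lower. In Tip5Δ 0 rose and 2 fell (2.84% and 6.23% of all genes), in Acf1Δ 1 rose and 4 fell (15.1% and 16.7%), and in Rsf1Δ 1 rose and 5 fell (7.45% and 13.1%). Sesn1, a paralogue of Sesn2, rose 2.66-fold in BptfΔ (edgeR adjusted p = 8.34e-14), Cdkn1a, the cell cycle inhibitor p21, 1.82-fold in BptfΔ (edgeR adjusted p = 3.67e-08) and Zmat3 1.78-fold in WstfΔ (edgeR adjusted p = 9.01e-11).

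The 9 genes did not follow one profile across the lines. The distance of each from the median of the 9, as the root mean square difference of log2 fold changes over the 6 lines, was smallest for Atf4 (0.119) and Sesn2 (0.126), and then 0.173 for Psat1, 0.18 for Trib3 and 0.26 for Asns. It was 0.351 for Phgdh, 0.364 for Ddit3, 0.405 for Chac1 and 0.952 for Atf5. Among the 15673 other genes tested, whose median distance was 0.506, the nearest were Zfp808 (0.109), Ctps2 (0.111), Lysmd1 (0.113), Rarres2 (0.116) and Psph (0.127). Of these only Psph belongs to the lists of the pathway. Ctps2 makes CTP and Rarres2 encodes the secreted protein chemerin. The profiles share WT libraries within batch A and rest on 6 lines, so the distances are a description.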

How the data were processed

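RNA-seq of 24 mESC libraries was analysed. The authors aligned reads to mm10 with Rhisat2 through QuasR 1.40.1 in spliced mode and deposited raw counts per gene of the UCSC knownGene annotation (TxDb package 3.10.0), without normalization. Counting options, strand and multiple matches are not given in the sources used here. The methods name an unstranded kit and the labels a stranded one. The labels also name bcl2fastq 2.17. The deposited table gives a gene width, used only for levels per kilobase.

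Groups and batches came from the sample labels. The study's methods call the replicates independent. Each line is 1 clone, so p-values rest on the spread between libraries of a group, estimated jointly over all 24 libraries, and not on that between clones. Symbols and GRCm38 positions came from RefSeq for 24570 of 24594 gene IDs. R 4.3.3 and edgeR 4.0.16 did the rest. Genes were filtered with filterByExpr by genotype (15682 kept) and scaled with TMM factors, and 1 quasi-likelihood model (legacy form) of batch plus genotype covered all 24 libraries, after the study's methods. The common biological coefficient of variation was 0.0567. Adjusted p-values are Benjamini-Hochberg values over all genes tested, also for each pair of lines. Standard errors follow from the log2 fold change and its F statistic. The steps were tested on simulated data.

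The 9 genes, the lists and the tests were chosen with earlier results of these data known. Genes named outside the 9 are the targeted genes and at most the 3 called genes with the largest change in each list. They also include the 5 genes nearest to the median profile, the genes that overlap Atf5 and Ddit3, marker genes at 0 counts and Rpph1. Genes that define a list, and those said to be chosen with their values in view, are named as well. The alternatives were other normalizations, filters, thresholds and fits, DESeq2 1.42.0, a model without batch, each line with its own WT alone, the replicate number as a block, and leaving out each library. Other assays of the study were not used here. Depth was 13.4 to 36.7 M counts per library (median 25.0 M).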

Additional observations from a re-analysis of the deposited data

Results flagged for a closer look

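Each of the 9 genes is listed because its log2 fold change against WT differed among the 6 deletion lines, by edgeR's test that the 6 changes are equal. The edgeR adjusted p was 9.99e-09 for Atf4, 4.7e-14 for Atf5 and 1.07e-06 for Ddit3. Among the stress effectors it was 1.04e-05 for Trib3, 8.16e-10 for Chac1 and 0.00538 for Sesn2. For the enzymes it was 1.48e-07 for Asns, 5.33e-06 for Psat1 and 0.00029 for Phgdh. Of all genes tested, 65.3% passed this test, so that passing it does not set the 9 genes apart. Chac1 and Ddit3 are the only ones of the 9 with a call in each direction, with Chac1 at 0.89 in the Cecr2Δ-labelled libraries and -0.85 in WstfΔ, and Ddit3 at 0.67 in BptfΔ and -0.50 in WstfΔ. Each line is 1 clone, so that differences between deletions and between clones cannot be told apart. Lines other than Rsf1Δ and WstfΔ, which share batch A, were also sequenced in different batches.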

How the results depend on the processing

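Of the 54 values of 9 genes in 6 lines, all kept their side of the threshold with edgeR's newer quasi-likelihood fit, with RLE factors and with library sizes alone. Among the other settings, 53 kept it in DESeq2, 53 with a filter at 1 CPM, 52 without a filter and 47 when a line was fitted with WT of its batch alone. In that last fit 8 genes were called in Tip5Δ in place of 4 and 5 in WstfΔ in place of 3, and at an adjusted p under 0.05 WstfΔ also had 5. The largest effect was that of a model without batch, in which 35 of the 54 kept their side. It left 3 genes called in BptfΔ, 1 in the Cecr2Δ-labelled libraries and 0 in Rsf1Δ, with 0 at an unadjusted p under 0.05 there (edgeR). Of the 51 other pathway genes it left 1 called in Acf1Δ in place of 24, 12 in BptfΔ in place of 37, 4 in the Cecr2Δ-labelled libraries in place of 29, 1 in Rsf1Δ in place of 15, 11 in Tip5Δ in place of 20 and 3 in WstfΔ in place of 24. With WT of the line's batch alone these were 9 in Acf1Δ and 33 in Tip5Δ. Without batch, the log2 fold change of Atf5 was 1.23 in BptfΔ (edgeR adjusted p = 0.0147) and 0.26 in WstfΔ (edgeR adjusted p = 0.717), and values with a call turned sign for Sesn2 in the Cecr2Δ-labelled libraries (-0.14), Trib3 in Rsf1Δ (-0.028), Aldh1l2 in the Cecr2Δ-labelled libraries (-0.084), Slc38a2 in Rsf1Δ (0.20), Zmat3 in the Cecr2Δ-labelled libraries (-0.21) and Cdkn1a in Acf1Δ (0.37), BptfΔ (-1.22), the Cecr2Δ-labelled libraries (-0.35) and Tip5Δ (0.10). That model sets each line against WT of all batches, whose levels differ.

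Leaving out 1 library at a time gave 4 to 5 of the 9 genes called in Acf1Δ, 7 to 8 in BptfΔ, 6 to 7 in the Cecr2Δ-labelled libraries, 0 to 3 in Rsf1Δ, 3 to 4 in Tip5Δ and 2 to 3 in WstfΔ. Of 234 such values, 216 kept their side, 16 lost a call, 2 gained one and 0 reversed. Of the other pathway genes, 14 to 21 were called in Acf1Δ, 30 to 32 in BptfΔ, 26 to 28 in the Cecr2Δ-labelled libraries, 10 to 13 in Rsf1Δ, 11 to 14 in Tip5Δ and 18 to 21 in WstfΔ. The count in Acf1Δ was 14 without WT replicate 1 of batch E, and that in Tip5Δ was 13 without Tip5Δ replicate 1, 11 without Tip5Δ replicate 2 and 12 without WT replicate 2 of batch B.

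With the replicate number as a block, 1 gene was called in Rsf1Δ in place of 3 (Asns 0.0107 and Chac1 0.0136, edgeR adjusted p), and no other call among the 9 genes changed. Libraries with the same number, as deviations from the mean of their group, correlated between -0.21 in Acf1Δ and 0.073 over 13 pairs, so the numbers do not pair the libraries. Numbers crossed in Acf1Δ, a setting chosen after seeing the data, gave 4 of the 9 genes and 25 of the other pathway genes called. In these libraries depth limits Atf5, Ddit3 and Chac1 most, which had the fewest counts.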
